A study of Homo sapiens with 6 samples.

Results

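A group of 10 genes was followed in RCC4 cells with and without the transcription factor ATF4. They restrain the growth kinase complex mTORC1, tell it how much amino acid is present, or act below it on translation. The genes were taken by name: the sestrins SESN1, SESN2 and SESN3, DDIT4, the eIF4E-binding proteins EIF4EBP1 and EIF4EBP2, CASTOR1, RRAGD, DEPTOR and FLCN. All 10 were found among the 60683 genes of the count table, and 9 passed the filter on low counts together with 15312 other genes. CASTOR1 did not pass.

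RCC4 is an established line of human clear cell kidney cancer without functional VHL, so the hypoxia-inducible factors are not degraded in the usual way. RNA was sequenced from 3 samples of the parental line, labelled wild type, and 3 samples labelled as ATF4 knockout, and both groups share the VHL-deficient background. No treatment, starvation or drug is given in the labels. They also leave out the knockout method, whether the line is 1 clone or a pool, and whether replicates came from separate cultures, so the p-values rest on a spread between samples that may be technical only.

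mTORC1 is a kinase complex at the lysosome that drives protein synthesis and growth when amino acids, energy and growth factors are sufficient. Amino acids act through the Rag GTPases, which recruit mTORC1 to the lysosome, and sestrins and CASTOR proteins sense leucine and arginine and hold the GATOR2 complex in check when these are scarce. ATF4 is made when eIF2 is phosphorylated under stress and is known to raise amino acid transport and synthesis, and SESN2, DDIT4 and EIF4EBP1 are described as its targets, which gives a route from stress to lower mTORC1 activity.

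Counts per sample ranged from 41002611 to 46755358, and levels are given as CPM, the counts of a gene scaled to a common library size with TMM factors. They are relative to each library, so the number of cells and the RNA per cell cannot be told apart in them. Of the renal markers, all 7 passed the filter on low counts, among them PAX8 at 238 CPM in the parental and 215 CPM in the knockout samples. Of these markers 3 were higher in the knockout samples (CA9 5.84-fold, NDUFA4L2 1.70-fold, CDH16 1.18-fold) and 2 were lower (PAX8, KRT18). CA9 and NDUFA4L2 are known hypoxia-response genes, as DDIT4 is, and their part in the results below was not tested. No marker of leukocytes, macrophages, endothelium or hepatocytes (PTPRC, CD68, PECAM1, CDH5, ALB) exceeded 10 counts in any library. The ATF4 transcript was still present in the knockout samples, at 214 ± 8.04 CPM against 244 ± 5.97 CPM in the parental samples (SD, n = 3), a log2 fold change of -0.19 (SE 0.029, edgeR adjusted p = 3.19e-07). The 100 tested genes nearest to ATF4 on chromosome 22 centred on a log2 fold change of -0.25 (median), and with that median removed ATF4 was at 0.06 (edgeR adjusted p = 0.0849). The transcript level thus does not check the label, and the protein was not measured. The median of the 100 nearest tested genes (the local median) is given below for each called regulator. It is also given where removing it ended a named call, turned the direction or moved the value by over 1.5 times.

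Of the 9 tested regulators, 5 were called at an edgeR adjusted p below 0.05, against 42% of all tested genes. EIF4EBP1 and SESN2 were higher in the knockout samples, where 21.2% of all genes were called higher, and RRAGD, EIF4EBP2 and FLCN were lower, where 20.8% of all genes were called lower. SESN1, SESN3, DDIT4 and DEPTOR were not called. The called differences were between 0.11 and 0.25 on the log2 scale in size, while the median size over all tested genes was 0.16 and over all called genes 0.26. The median log2 fold change of the 9 genes was -0.06, against 0.01 over all tested genes. The groups did not overlap in 5 of the 9 genes, against 49.6% of all tested genes. Differences of this number and size were common across the transcriptome, and the count is not read as a property of these genes.

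**Figure D1:**
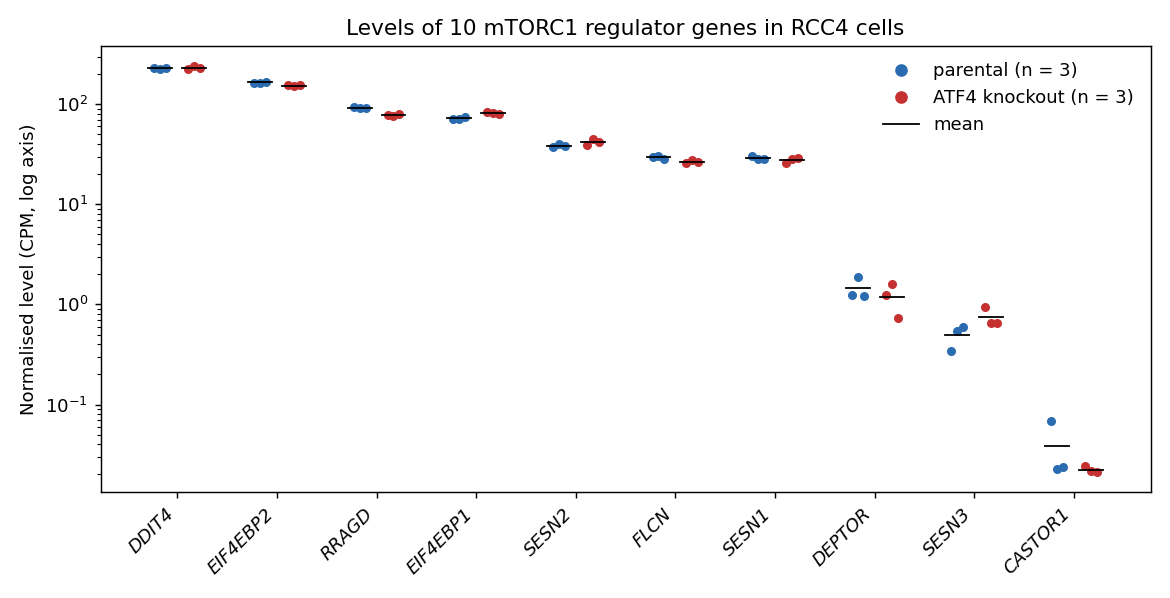
Normalised level of each regulator gene in CPM on a log axis, in order of the parental mean, for the 3 parental (blue) and 3 ATF4 knockout (red) samples, with the group mean as a line. Within each gene the groups lie close together, and the genes span from 229 CPM for DDIT4 to 0.495 CPM for SESN3 in the parental samples, with CASTOR1 at 1 to 3 counts per library.

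Levels between genes were compared per kilobase of exon. In the parental samples the order was DDIT4 (111 CPM per kb), EIF4EBP1 (67.4), EIF4EBP2 (22.8), RRAGD (18.2), SESN2 (11.2), SESN1 (5.68), FLCN (3.02), DEPTOR (0.552), SESN3 (0.0468) and CASTOR1. No neighbours in this order overlapped between their 3 samples. The knockout samples gave the identical order, again without overlap between neighbours. By these counts the line carried DDIT4, which acts through the growth factor branch, at the highest level. The arginine sensor CASTOR1 was counted close to the limit of detection, and the mTOR-binding inhibitor DEPTOR was low.

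**Figure D2:**
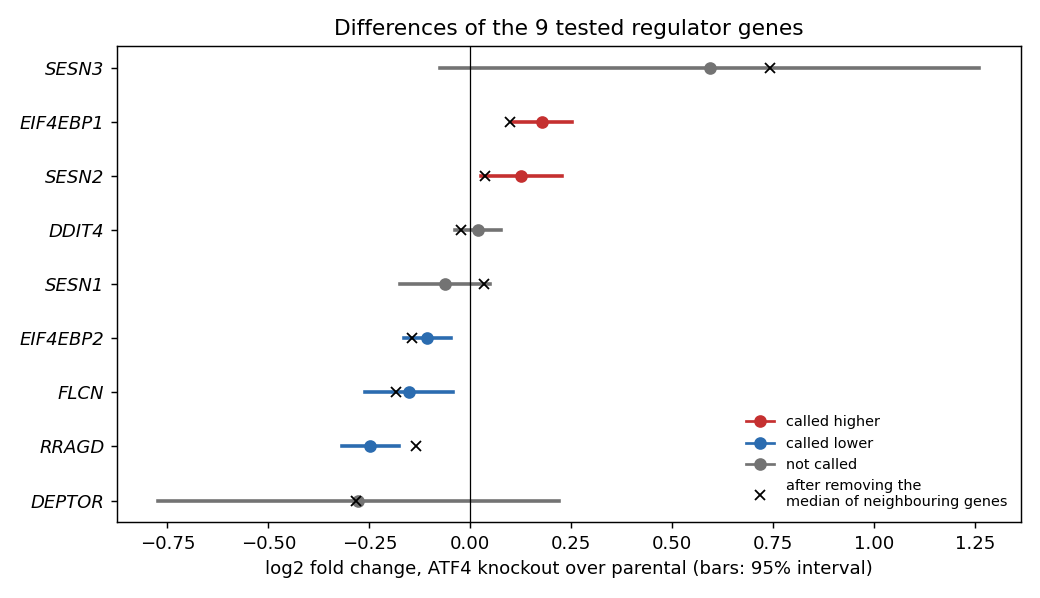
Log2 fold change (knockout over parental) of the 9 tested regulators with its 95% interval, coloured by call, and as a cross the value after the median of the 100 nearest tested genes was removed. Intervals are narrow for the abundant genes and wide for SESN3 and DEPTOR, and the crosses of SESN2 and RRAGD lie nearer to 0 than their points.

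The sestrins bind GATOR2 when leucine is low and are induced by stress. SESN2 (ENSG00000130766, GRCh38, chromosome 1, 28259527 to 28282491, plus strand), the leucine sensor that is described as an ATF4 target, was at 37.2, 40.5 and 38.0 CPM in the parental samples and at 39.2, 44.9 and 42.1 CPM in the knockout samples. It was slightly higher without ATF4, and the groups overlapped. Its mean rose from 38.5 ± 1.71 to 42.0 ± 2.82 CPM (SD, n = 3), a 1.09-fold difference (log2 fold change 0.13, SE 0.050, 95% interval 0.03 to 0.23, edgeR adjusted p = 0.0358). The call depended on the processing. With DESeq2 the adjusted p was 0.0835, and with the local median on chromosome 1 (0.09) removed the log2 fold change was 0.04 (edgeR adjusted p = 0.62). Without knockout replicate 2 the log2 fold change was 0.08 (edgeR adjusted p = 0.295), and without parental replicate 1, parental replicate 3 or knockout replicate 3 the adjusted p was 0.171, 0.089 and 0.0726.

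SESN1 (ENSG00000080546, chromosome 6, 108986437 to 109094819, minus strand), a sestrin known as a target of FOXO factors, was at 30.7, 28.3 and 28.2 CPM in the parental and at 25.8, 28.4 and 29.2 CPM in the knockout samples. The groups overlapped. The log2 fold change was -0.06 (SE 0.056, 95% interval -0.17 to 0.05, edgeR adjusted p = 0.391), and with the local median of -0.10 removed it was 0.03 (edgeR adjusted p = 0.681).

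SESN3 (ENSG00000149212, chromosome 11, 95165513 to 95232541, minus strand), a sestrin known as a FOXO target, was scarce, with 15, 24 and 25 counts in the parental and 39, 30 and 31 counts in the knockout samples. Every knockout sample was above every parental sample, at 0.750 ± 0.172 against 0.495 ± 0.132 CPM (SD, n = 3), but the log2 fold change of 0.59 had an SE of 0.33 and a 95% interval from -0.08 to 1.26 (edgeR adjusted p = 0.154). At this depth a difference of SESN3 was not detectable, and the interval is too wide to say that its level was alike. The value moved to 0.39 when parental replicate 1 or knockout replicate 1 was left out (edgeR adjusted p = 0.432 and 0.459).

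CASTOR1 (ENSG00000239282, chromosome 22, 30285117 to 30289627, minus strand), the arginine sensor, had 3, 1 and 1 counts in the parental and 1, 1 and 1 counts in the knockout samples. These are at or under 3 counts in every library, the number that a count of 0 still allows (0.0642 to 0.0732 CPM, counting error only), and no fold is given. A readthrough gene on the same strand that shares 46.0% of the exon bases of CASTOR1 had 0 counts in all libraries. Reads in the shared bases fit both genes and may have been counted for neither, which was not tested. The CASTOR1 counts may therefore be too low. The paralog CASTOR2 (chromosome 7), whose product can pair with CASTOR1, took 99.9% of the counted reads of both genes per kb. CASTOR2 fell from 14.4 ± 0.422 to 10.8 ± 0.478 CPM (SD, n = 3), a log2 fold change of -0.42 (SE 0.078, edgeR adjusted p = 1.33e-05), and its local median was -0.02. CASTOR2, which held nearly all counted reads of the pair, was thus lower in the knockout samples.

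The Rag GTPases work as a pair of RagA or RagB with RagC or RagD. RRAGD (ENSG00000025039, chromosome 6, 89364636 to 89412270, minus strand), which encodes RagD and is known as a target of the lysosomal factors TFEB and TFE3, was at 92.9, 91.7 and 92.9 CPM in the parental and at 77.7, 76.1 and 79.9 CPM in the knockout samples. The groups were clearly apart. RRAGD fell from 92.5 ± 0.688 to 77.9 ± 1.95 CPM (SD, n = 3), 1.19-fold lower (log2 fold change -0.25, SE 0.035, 95% interval -0.32 to -0.18, edgeR adjusted p = 3.86e-08). It was the largest called difference of the group, and 65.5% of all tested genes differed by less. Genes near RRAGD had a median of -0.11, and with it removed the log2 fold change was -0.13 (edgeR adjusted p = 0.00158). RRAGD was called in each of the 14 alternatives tried, between -0.27 and -0.13.

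FLCN (ENSG00000154803, chromosome 17, 17212212 to 17237188, minus strand) encodes folliculin, which with FNIP proteins acts on RagC and RagD as a GTPase-activating protein and is lost in Birt-Hogg-Dubé syndrome, a disorder with renal tumours. It was at 29.5, 30.5 and 28.7 CPM in the parental and at 25.9, 27.7 and 26.2 CPM in the knockout samples. The groups did not overlap. FLCN fell from 29.6 ± 0.935 to 26.6 ± 0.958 CPM (SD, n = 3), 1.11-fold lower (log2 fold change -0.15, SE 0.054, 95% interval -0.26 to -0.04, edgeR adjusted p = 0.0198), and its local median was 0.03. The call was lost when counts were scaled by their totals (-0.13, edgeR adjusted p = 0.0573) and without parental replicate 2, knockout replicate 1 or knockout replicate 3 (edgeR adjusted p = 0.0925, 0.0654 and 0.0612). FNIP1, a folliculin partner, was also lower, at -0.17 (SE 0.042, edgeR adjusted p = 0.000758). FNIP2, the other FNIP gene of the lists, was not called, at 0.001 (SE 0.055, edgeR adjusted p = 0.992). With its local median of 0.06 removed FNIP2 was at -0.06 (edgeR adjusted p = 0.440). Both FNIP genes are named here after their values were seen.

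DDIT4 (ENSG00000168209, chromosome 10, 72273920 to 72276036, plus strand) encodes REDD1, which restrains mTORC1 through the TSC complex and is known to be induced by HIF and by ATF4. It was at 231, 227 and 228 CPM in the parental and at 224, 240 and 230 CPM in the knockout samples. The groups overlapped, at 229 ± 2.34 against 231 ± 7.93 CPM (SD, n = 3), and the means differed by less than the SD of the knockout samples. The log2 fold change was 0.02 (SE 0.029, edgeR adjusted p = 0.645), with a 95% interval from -0.04 to 0.08. A share of 6.87% of all tested genes had a smaller difference. Its sign was not stable, being -0.02 with the local median of 0.04 removed and -0.0080 without knockout replicate 2. An antisense gene, DDIT4-AS1, covers 41.2% of the exon bases of DDIT4. No source used here gives the strand setting of the counting, so reads of both may not have been told apart. DDIT4-AS1 had 35 to 74 counts per library against 9230 to 11159 for DDIT4. These counts do not settle the point, because without strand reads in the shared bases may have been counted for neither gene.

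The stretches before the start sites of SESN2 and DDIT4 are shown because both genes are described as ATF4 targets and neither fell. They are given with the 240 bases that end 10 bases before the RefSeq start (GRCh38.p14, 5′ to 3′ along the gene), at chr1:28259268-28259507 and chr10:72273674-72273913, both on the plus strand. Capitals mark ACGTG or GCGTG, the core letters of the hypoxia response element.
SESN2: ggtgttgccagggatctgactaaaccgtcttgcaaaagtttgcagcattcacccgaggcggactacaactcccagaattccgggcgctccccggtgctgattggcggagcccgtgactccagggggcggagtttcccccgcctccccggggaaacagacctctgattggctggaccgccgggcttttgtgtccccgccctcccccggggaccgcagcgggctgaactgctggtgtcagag
DDIT4: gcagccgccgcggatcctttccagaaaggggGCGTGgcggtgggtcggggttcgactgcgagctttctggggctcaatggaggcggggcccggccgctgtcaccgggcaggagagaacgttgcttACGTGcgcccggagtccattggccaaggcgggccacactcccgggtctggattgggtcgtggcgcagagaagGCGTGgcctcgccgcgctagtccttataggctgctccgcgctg
For comparison, 30 bases are shown around the letters TGATGNAA, the C/EBP-ATF response element (here in capitals, or as its reverse complement), from 3 reference ATF4 target genes that fell, at chr16:70289675-70289704 (minus strand), chr19:46784893-46784922 (minus strand) and chr7:30594834-30594863 (plus strand). They are the genes with the smallest p among those lower reference genes that hold it, and the element began 187, 97 and 33 bases before the start.
AARS1: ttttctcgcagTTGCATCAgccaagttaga
SLC1A5: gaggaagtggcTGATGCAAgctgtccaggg
GARS1: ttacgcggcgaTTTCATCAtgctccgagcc
The 3 genes around these elements, all tRNA synthetase or amino acid transporter genes, changed by -0.86, -0.69 and -0.67 on the log2 scale (SE 0.029, 0.028 and 0.030).

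Promoter windows of 250 bases before the RefSeq start were found for 7 of the regulators, namely SESN1, SESN2, SESN3, DDIT4, EIF4EBP2, CASTOR1 and FLCN. Each motif was searched on both strands. TGATGNAA was in the windows of 0 of the 7, of 9 of 31 matched reference genes and of 3.89% of all 27305 genes. Of the 24 matched reference genes called lower, 6 held it. The reference genes ATF3, which was not called, and ASNS and FGF21, which were not tested, held it as well. Whether holding the element goes with a fall was not tested. CACGTG, the E-box core bound by TFEB and TFE3, was in 0 of the 7 and in 7.73% of all genes, and the longer TCACGTGA was in 0 of the 7 and in 1.04% of all genes. GTAAACA, a forkhead element, was in 0 of the 7 and in 3.66% of all genes. ACGTG, which CACGTG also contains, was in DDIT4, 125 bases before its start, and in 21.7% of all genes. GCGTG was in SESN1, DDIT4, EIF4EBP2, CASTOR1 and FLCN and in 36.2% of all genes. A window without a match says only that these letters are not in it.

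DEPTOR (ENSG00000155792, chromosome 8, 119873717 to 120050913, plus strand) encodes a protein that binds mTOR directly and inhibits it. It had 54, 83 and 51 counts in the parental and 51, 75 and 35 counts in the knockout samples, or 1.45 ± 0.382 and 1.20 ± 0.438 CPM (SD, n = 3). The groups overlapped. The log2 fold change of -0.28 had an SE of 0.25 and a 95% interval from -0.77 to 0.22 (edgeR adjusted p = 0.394), so that neither a fall of that size nor a small rise lies outside it. The value ranged from -0.56 without knockout replicate 2 to -0.02 without knockout replicate 3, and was -0.04 without parental replicate 2.

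The eIF4E-binding proteins sit below mTORC1. In their unphosphorylated form they bind the cap-binding protein eIF4E and hold back cap-dependent translation. EIF4EBP1 (ENSG00000187840, chromosome 8, 38030341 to 38060365, plus strand), which encodes 4E-BP1 and is described as an ATF4 target, was at 71.4, 71.5 and 74.0 CPM in the parental and at 84.2, 82.2 and 79.1 CPM in the knockout samples. All knockout samples were above all parental samples. It rose from 72.3 ± 1.43 to 81.8 ± 2.55 CPM (SD, n = 3), 1.13-fold higher (log2 fold change 0.18, SE 0.037, 95% interval 0.10 to 0.25, edgeR adjusted p = 6.27e-05). With the local median of 0.08 removed the log2 fold change was 0.10 (edgeR adjusted p = 0.0292), and it was called in all 14 alternatives.

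EIF4EBP2 (ENSG00000148730, chromosome 10, 70404379 to 70428618, plus strand), which encodes 4E-BP2, moved the other way. It was at 164, 165 and 167 CPM in the parental and at 154, 151 and 155 CPM in the knockout samples, with no overlap. The mean fell from 165 ± 1.33 to 153 ± 2.40 CPM (SD, n = 3), 1.08-fold lower (log2 fold change -0.11, SE 0.029, 95% interval -0.16 to -0.05, edgeR adjusted p = 0.00228). The local median was 0.04, and with it removed the log2 fold change was -0.15 (edgeR adjusted p = 5.55e-05). EIF4EBP2 was also called in all 14 alternatives.

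Balances within families were compared as log2 ratios in each sample, for 5 pairs in which both genes were tested. With 3 samples against 3 the exact two-sided permutation test cannot go below p = 0.1. EIF4EBP1 over EIF4EBP2 went from -1.19 ± 0.017 to -0.91 ± 0.055 (SD, n = 3; difference 0.29, exact permutation p = 0.1, adjusted over the 5 pairs 0.125). SESN2 over SESN1 went from 0.41 ± 0.12 to 0.60 ± 0.07 (difference 0.19, exact permutation p = 0.1, adjusted 0.125). These ratios and those of SESN3 over SESN1 (difference 0.68) and RRAGD over RRAGC (difference 0.12) did not overlap between the groups and reached the smallest p this design allows, whereas SESN3 over SESN2 overlapped (difference 0.49, exact permutation p = 0.3, adjusted 0.3). For EIF4EBP1 over EIF4EBP2 this outcome was fixed by the genes, which each did not overlap and moved in opposite directions. Their ratio therefore adds nothing to their calls. The share of other gene pairs without overlap was not computed. Without parental replicate 1 the difference was 0.12 for SESN2 over SESN1 and 0.40 for SESN3 over SESN1, and without knockout replicate 1 it was 0.45 for SESN3 over SESN1 and 0.08 for RRAGD over RRAGC (exact permutation p from 0.2 to 0.3). SESN3 over SESN2 was at 0.27 and 0.26 without these same samples. EIF4EBP1 over EIF4EBP2 stayed between 0.27 and 0.32 when each sample was left out. The ratios were not recomputed with the local median removed, where SESN2 and SESN1 alone were at 0.04 and 0.03.

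**Figure D3:**
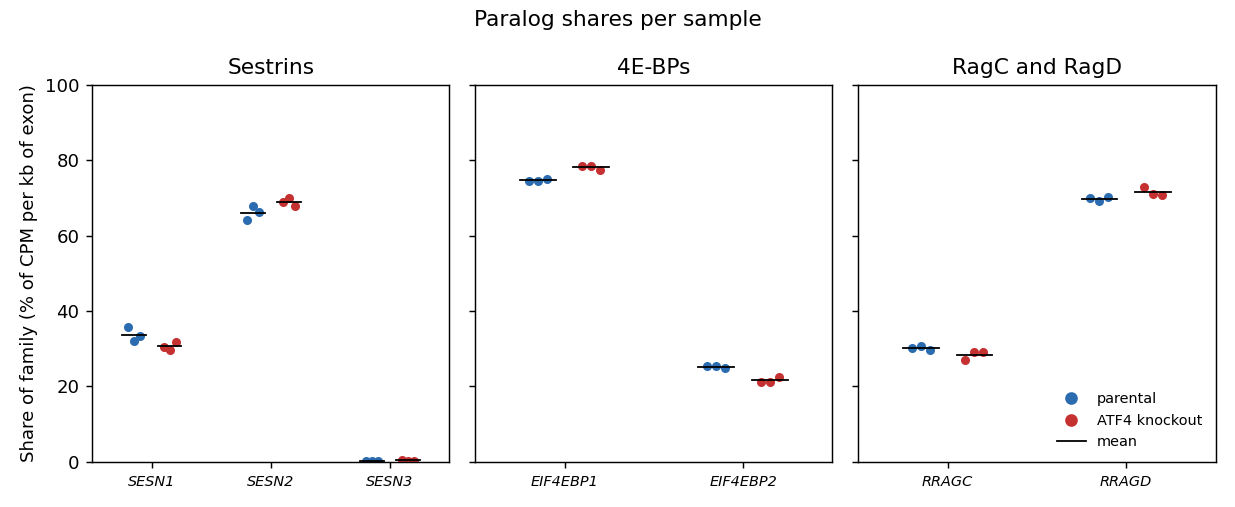
Share of each paralog in its family in percent of CPM per kb of exon, for each parental (blue) and ATF4 knockout (red) sample, with group means as lines. SESN2 and EIF4EBP1 hold most of their families, and the EIF4EBP1 share is higher in all 3 knockout samples.

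As shares per kb of exon, EIF4EBP1 held 74.7 ± 0.247% of the 4E-BP reads in the parental and 78.2 ± 0.720% in the knockout samples (SD, n = 3), and EIF4EBP3 had at most 7 counts in a library. SESN2 held 66.1 ± 1.85% and 68.9 ± 1.02% of the sestrin reads and SESN3 0.277% and 0.406%. RagC and RagD differed less in share than in level. RRAGC, which encodes RagC, fell from 40.7 ± 0.788 to 31.6 ± 2.02 CPM (SD, n = 3; log2 fold change -0.37, SE 0.051, edgeR adjusted p = 2.23e-08) although its local median was 0.06. RRAGD therefore held 69.8 ± 0.549% of the reads of both in the parental and 71.6 ± 1.13% in the knockout samples, while both genes were lower. DDIT4L, the paralog of DDIT4, had 2 counts in 1 parental library and 0 in the others, so almost all reads of the pair came from DDIT4.

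The rest of the pathway was described with 5 lists of 70 genes, 68 of them tested. In these, 13 genes (19.1%) were called higher and 15 (22.1%) lower, close to the 21.2% and 20.8% over all tested genes, and the median log2 fold change was 0.03. With the median of neighbouring genes removed the calls were 8 higher and 18 lower, and with scaling by total counts 20 higher and 14 lower.

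In the GATOR complexes, which relay the amino acid signal to the Rags, and KICSTOR, which anchors GATOR1, 4 of 12 tested genes were lower: DEPDC5 (-0.39), ITFG2 (-0.20), MIOS (-0.13) and NPRL3 (-0.13). The count of called higher genes was 0 with edgeR and with DESeq2, 0 at an unadjusted edgeR p below 0.05 and 1 with scaling by total counts. DEPDC5 lies on chromosome 22, where its local median was -0.27, and with that removed it was at -0.12 (edgeR adjusted p = 0.501). ITFG2 at -0.12 and MIOS at -0.07 also lost their calls with the local medians of -0.08 and -0.06 removed (edgeR adjusted p = 0.142 and 0.259), and MIOS did so with total counts (edgeR adjusted p = 0.0615). Each of the 4 calls was also lost when certain samples were left out: NPRL3 without parental replicate 1 or 2 or knockout replicate 3, ITFG2 without parental replicate 2 or knockout replicate 1, MIOS without parental replicate 1 or knockout replicate 2, and DEPDC5 without parental replicate 1, with edgeR adjusted p-values from 0.0504 to 0.12. MIOS is part of GATOR2, the complex that sestrins and CASTOR proteins bind, and NPRL3 and DEPDC5 are part of GATOR1, which switches RagA and RagB off.

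In the list of Rag, Ragulator and sensor genes, 2 of 15 were higher, LAMTOR2 (0.16) and RRAGA (0.09), and 7 were lower, of which LAMTOR1 (-0.30), RRAGB (-0.50) and RRAGC (-0.37) had the smallest p-values. The partners of RRAGD thus differed in direction. RRAGB lies on the X chromosome, where its local median was -0.23, and with that removed it was at -0.27 (edgeR adjusted p = 0.000173). RRAGA was at 0.01 with its local median of 0.08 removed (edgeR adjusted p = 0.839), and its call was lost without parental replicate 3 or knockout replicate 2 (edgeR adjusted p = 0.0891 and 0.0794). LAMTOR2 was at 0.06 with its local median of 0.10 removed (edgeR adjusted p = 0.42). LAMTOR1, the Ragulator subunit that anchors the complex in the lysosomal membrane, was at 136 ± 0.995 CPM in the parental and 110.2 ± 0.843 CPM in the knockout samples (SD, n = 3), and with its local median of -0.14 removed its log2 fold change was -0.17 (edgeR adjusted p = 1.53e-05).

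Among the mTOR complexes, TSC and RHEB, 4 of 15 were higher: RICTOR (0.28), TELO2 (0.20), MTOR (0.14) and MAPKAP1 (0.09). PRR5, a subunit of mTORC2, was the 1 lower gene, at -0.67, with a local median of -0.29 on chromosome 22 and -0.37 after its removal (edgeR adjusted p = 0.000286). MTOR, the kinase of mTORC1, was at 64.1 ± 2.35 and 70.8 ± 2.08 CPM (SD, n = 3). Of the growth factor and energy inputs, 3 of 14 were higher, PRKAA1 (0.34), AKT1 (0.11) and PRKAA2 (0.11), and 1 was lower, PIK3R1 (-0.22). With the local median removed RICTOR was at 0.15 (local median 0.13) and PRKAA1 at 0.22 (local median 0.11), and both were still called, while MAPKAP1 at 0.02, AKT1 at 0.01 and PRKAA2 at 0.07 were not (edgeR adjusted p = 0.675, 0.788 and 0.161). MAPKAP1 was also not called without knockout replicate 3 (edgeR adjusted p = 0.0726), and PRKAA2 was not called without parental replicate 1, knockout replicate 1 or knockout replicate 3 (edgeR adjusted p = 0.115, 0.237 and 0.0940). PRKAA2 was also not called with DESeq2 (DESeq2 adjusted p = 0.0705). PRKAA1 and PRKAA2 encode the catalytic subunits of AMPK, which acts on the TSC complex as REDD1 does.

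The list called translation outputs also holds ULK1, which is not a translation factor. In this list 4 of 12 were higher, EIF4E2 (0.15), EEF2K (0.12), EIF4G1 (0.11) and RPS6 (0.07), and 2 were lower, ULK1 (-0.22) and EIF4B (-0.09). The 12 include EIF4A1, named after its value was seen, at -0.35 and not called (edgeR adjusted p = 0.103). It shares 48.6% of its exon bases with other genes on its strand, and its 72 to 136 counts per library may miss reads. It was called with its local median of 0.13 removed (-0.48, edgeR adjusted p = 0.0242). RPS6 turned to -0.02 with its local median removed, and lost its call without parental replicate 1 or 3 or knockout replicate 1 or 2 (edgeR adjusted p from 0.0839 to 0.199). The RPS6 call was also lost with RLE factors and with a stricter filter (edgeR adjusted p = 0.0550 and 0.0553). With the local median removed EEF2K and EIF4G1 were both at 0.06 and not called (edgeR adjusted p = 0.285 and 0.0954). EEF2K also lost its call without parental replicate 2 or knockout replicate 2 (edgeR adjusted p = 0.0530 and 0.155). EIF4E itself, the protein that 4E-BP1 and 4E-BP2 bind, was at 26.6 ± 0.651 and 28.8 ± 1.64 CPM (SD, n = 3) and was not called (log2 fold change 0.11, SE 0.055, edgeR adjusted p = 0.0976). It was at 0.05 after removal of its local median of 0.06 (edgeR adjusted p = 0.539), and it was named after its value was seen.

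**Figure D4:**
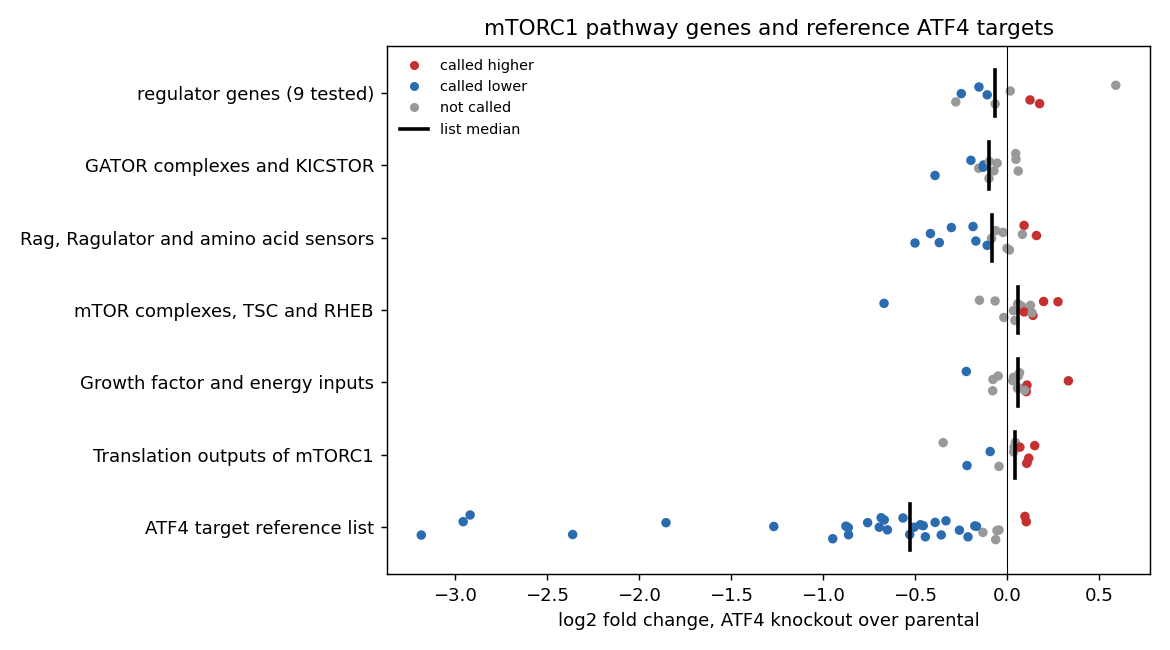
Log2 fold change (knockout over parental) of each tested gene, by list, with the list median as a bar and colour by call. ADM2, which had 78 parental and 0 knockout counts, is left out of the bottom row. The regulators and pathway lists lie around 0 with medians between -0.10 and 0.06, and the reference list of ATF4 targets has a median of -0.53.

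Against this, the reference list of known ATF4 targets was mostly lower. Of 38 genes, 35 were tested, 29 (82.9%) were lower and 2 were higher, TNFRSF10B (0.10) and VLDLR (0.11), with a median of -0.53. With the local median removed TNFRSF10B and VLDLR were both at 0.02 and not called (edgeR adjusted p = 0.616 and 0.658). Both higher calls were also lost without knockout replicate 3 (edgeR adjusted p = 0.133 and 0.137), and VLDLR also without parental replicate 1 (edgeR adjusted p = 0.0501). ATF3 (-0.13), NARS1 (-0.06), SHMT2 (-0.05) and PPP1R15A (-0.04) were not called. NUPR1, a stress-induced regulator, was at 73.5 ± 1.65 CPM in the parental and 8.09 ± 0.375 CPM in the knockout samples (SD, n = 3; log2 fold change -3.18), SLC7A5, the leucine transporter, at 629 ± 27.0 and 174 ± 4.06 CPM (-1.85), and its partner SLC3A2 at 238 ± 11.9 and 98.9 ± 3.18 CPM (-1.27). The list was drawn up from general knowledge of ATF4 targets with earlier results of these samples known, and it is not independent evidence of direction. It leaves out SESN2, DDIT4 and EIF4EBP1, which are also described as targets and are counted with the regulators. The contrast with the regulators thus rests in part on how the genes were sorted.

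Some factors known to act on the regulators differed and others were not called. HIF1A, which acts on DDIT4 in hypoxia, was higher at 0.28 (SE 0.030), and EPAS1, which encodes HIF-2α, was lower at -0.48 (SE 0.029), from 183 ± 3.07 to 130.9 ± 0.412 CPM (SD, n = 3). TFE3, which acts on RRAGD and FLCN, was at -0.32 (SE 0.030), but its local median on the X chromosome was -0.23 and the remainder was -0.09 (edgeR adjusted p = 0.0123). CEBPB, a partner of ATF4, was at -0.50 (SE 0.047), and at -0.33 with its local median of -0.18 removed (edgeR adjusted p = 1.69e-07). Named after their values were seen, FOXO1, at 8.36 CPM in the parental samples, was at -0.32, while FOXO3 at 119.7 CPM (-0.05), FOXO4 (-0.13), NFE2L2 (-0.03), MITF (0.04) and TFEB (-0.18, edgeR adjusted p = 0.0602) were not called. After removal of the local median FOXO3 (0.05), FOXO4 (0.09) and MITF (-0.03) turned direction. TFEB was then at -0.11 and NFE2L2 at -0.05, and all of these stayed uncalled. These values move in the same 6 samples as the regulators, and their part in the regulators' levels was not tested.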

How the data were processed

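RNA was sequenced from 3 parental and 3 ATF4 knockout RCC4 samples, grouped by their labels, after a stranded mRNA library kit. The deposited values are raw counts of reads per gene. Per the submitters' processing notes, bcl2fastq 2.20, cutadapt, STAR and HTSeq were used with GRCh38. The annotation release and strand setting were not given in the sources used here.

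The regulators and lists were chosen with earlier results of these data known. Symbols came from a gene name table (60370 of 60683 identifiers) and, for 289, from GENCODE 29, which also gave coordinates and exon lengths. Genes were kept by filterByExpr (15321), scaled by TMM and tested with the quasi-likelihood F test of edgeR 4.0.16 (R 4.3.3), with Benjamini-Hochberg adjustment over all tested genes and calls below 0.05. Errors of fold changes are standard errors of the fit. The local median is that of the 100 nearest tested genes, entered as an offset. Promoters came from RefSeq (GRCh38.p14). The test was tested on simulated counts. Intervals of fold changes rest on the standard errors of the fit, which include the spread between samples of a group. Limits for a count of 0 cover counting error only.

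Replicates of a group differed by 3.59 to 5.80 times sampling noise, and all 6 samples were kept. Named genes were the regulators, their paralogs, ATF4, up to 3 called genes per list and direction with the smallest p, and all genes of a count of 5 or fewer. One item of the list of transcription factors, and that list's counts, are not reported here. Alternatives were RLE factors, total counts, no filter, a stricter filter (1 CPM in 3 samples), DESeq2 1.42.0, limma-voom 3.58.1, a replicate block, the local median and leaving out each sample.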

Additional observations from a re-analysis of the deposited data

How the results depend on the processing

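Low counts limited SESN3, DEPTOR and CASTOR1 most. Reads in exon bases shared with another gene on the same strand may be missing for CASTOR1 (46.0% shared) and FLCN (11.9%). If counting ignored the strand, reads may also be missing in bases shared with genes on the opposite strand, most of all for DDIT4 (41.2%). EIF4EBP1, EIF4EBP2 and RRAGD kept their direction and call in all 14 alternatives, and SESN1, SESN3, DDIT4 and DEPTOR were called in none of those run (the stricter filter removed SESN3). The replicate numbers do not pair the samples (correlations of same-numbered deviations -0.028, 0.006 and -0.016), and a replicate block changed no call of a regulator (SESN2 0.12, FLCN -0.15, RRAGD -0.25), with 2 growth factor and energy genes lower in place of 1. The paralog ratios kept their direction with a prior count of 2, with the block and without each sample, the alternatives run for them, and their p cannot fall below 0.1, or 0.25 with the block. With the local median removed SESN1 was at 0.034, SESN2 0.036, DDIT4 -0.023, RPS6 -0.023 and ATF4 0.064, 1 regulator was called higher, and the higher calls were 0 for Rag, Ragulator and sensor genes, 1 for growth factor and energy inputs, 2 for translation outputs, 8 for the pooled lists and 0 for the ATF4 reference list, with 2 lower calls each for the mTOR complexes and the growth factor and energy inputs. With DESeq2 SESN2 was at 0.12 and 1 regulator was called higher. With total counts FLCN was at -0.13, and 20 pooled genes, 7 growth factor and energy inputs and 1 GATOR gene were higher. RLE factors and the stricter filter each gave 2 lower growth factor and energy inputs, and the stricter filter 2 lower mTOR complex genes. Leaving out 1 sample at a time gave 0.078 to 0.17 for SESN2, -0.0080 to 0.035 for DDIT4 and -0.18 to -0.13 for FLCN, 1 to 2 regulators higher, 1 to 2 Rag, Ragulator and sensor genes higher, 2 to 4 translation outputs higher, 0 to 2 reference genes higher, 2 to 4 GATOR and KICSTOR genes lower and 1 to 2 growth factor and energy inputs lower. The cause of these changes was not tested.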
